A study of Oryza sativa with 60 samples.

Results

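AUC sites are pseudouridine (Ψ) sites of rice mRNA in which the modified uridine has A directly before it and C directly after it. They were taken from a table of 9126 listed Ψ sites as the rows that lie within the span of exactly 1 gene on the same strand, with an identifier that begins with Os, and that have A as the third and C as the fifth letter of the 7 letters given around the site. The rule found 1079 AUC sites among 8124 in-gene sites (13.3%, 95% Wilson interval 12.6% to 14.04%), in 962 genes. A further 86 listed AUC sites were left out, 71 of them because they lay in no gene of the table and 15 because their gene has another kind of identifier. The letters of the context are the rule itself and are no finding, and no fraction was used to choose the sites.

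The series applied bisulfite-induced deletion sequencing (BID-seq) to polyadenylated RNA of Oryza sativa cultivar Nipponbare. In this assay bisulfite turns Ψ into an adduct at which reverse transcriptase leaves a gap, so the gapped share of reads reports how much of a uridine is modified. The 60 samples were 24 input and 36 bisulfite-treated libraries, with 2 input and 3 treated libraries in each of 12 groups. The groups were the plumule (shoot of the germinating embryo) and the radicle (its root), each grown in the dark or in the light, the seedling at 8 days or 2 weeks of age, 3 organs at heading, namely straw, flag leaf and panicle, and 3 organs taken 10 days after anthesis (10 DAA), namely flag leaf, embryo and endosperm. The labels name no mutant and no treatment other than light, and they do not say whether replicates came from separate plants. Ψ values are given as the fraction of transcripts modified at a site, here in percent, as 1 value for each site and tissue that the authors had pooled over replicates. No replicate error can therefore be attached to a fraction, the read depth behind it is unknown, and differences between fractions are given as descriptions. In 11 of the 12 tissues a flag marks the sites that passed the authors' quality filter, and plumule in the dark has no flag.

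Ψ is an isomer of uridine that is made after transcription by Ψ synthases, which turn the base around so that it is joined to the ribose through a carbon atom. Some of these enzymes are guided to their target by small nucleolar RNAs, and others recognize the sequence and the fold of the RNA by themselves. In yeast and human cells, the best known recognition sequences in mRNA are a GUUC loop for Pus4 and TRUB1 and a UNUAR stretch for Pus7, neither of which places the modified uridine between A and C. Ψ in mRNA has been linked to RNA stability, splicing and translation.

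The sequences around the AUC sites were few in kind. The sites held 112 of the 256 possible 7-letter sequences, and the 5 commonest of these covered 637 sites (59.0%). They are shown because they make up most of the class, written as the DNA letters of the transcript strand with A, the site and C in capitals.
Commonest, 210 sites with a median fraction of 9.08%: cgATCgg
Next, 153 sites with a median fraction of 7.08%: agATCgg
Next, 135 sites with a median fraction of 7.07%: tgATCgg
Next, 83 sites with a median fraction of 5.74%: cgATCga
Next, 56 sites with a median fraction of 5.70%: agATCgc
All of them have G on both sides of the triplet. Over all AUC sites, G stood before the A in 962 sites (89.2%, Wilson interval 87.2% to 90.9%), against 59.2% of the 7045 in-gene sites of other contexts. G followed the C in 850 sites (78.8%), against 34.1% in other contexts. In the outermost letters the AUC sites had fewer G before the triplet (9.64% against 33.6%) and more G at the end (58.8% against 41.0%).

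Grouped by the 5 central letters, 807 AUC sites (74.8%) had G on each side of the triplet, and this was the commonest 5-letter sequence of all in-gene sites, with 9.93% of them and 460 sites for the next one. The most frequent 5-letter sequences after it were the 86 sites with G before and C after, the 37 with C before and C after, the 36 with G before and A after and the 33 with G before and T after. Among the 5-letter sequences with 10 or more AUC sites, the 5 with the highest medians are shown to compare how the outer bases go with the fraction.
Highest, 37 sites with a median of 42.04% and quartiles of 27.5% and 49.9%: cATCc
Next, 32 sites with a median of 19.7%: cATCg
Next, 86 sites with a median of 14.6%: gATCc
Next, 807 sites with a median of 6.98% and quartiles of 4.28% and 9.66%: gATCg
Next, 36 sites with a median of 4.32%: gATCa
A median of 20% or more over the tissues was reached by 32 of the 37 sites with C on both sides of the triplet (86.5%) and by 21 of the 807 sites with G on both sides (2.60%).

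The AUC sites were split by the base before the A. The large class follows G and had low fractions, and the small class follows another base and was mixed. This split was chosen after the letters and the fractions had been seen and carries no test. The 962 sites after G had a median fraction of 7.09%, with quartiles of 4.23% and 10.4%. The other 117 sites had a median of 22.3%, with quartiles of 7.54% and 38.9%. Among these, the 78 sites after C had the highest median, 27.0%, and 53 of them (67.9%) had a median of 20% or more. The 17 sites after A had a median of 9.02% and the 22 sites after T one of 7.15%. Only the sites after C thus had a median far above that of the sites after G. The base behind the triplet also went with the fraction. For sites after G, the median was 14.6% with C and 6.98% with G behind the triplet. For sites after C, it was 42.04% with C and 19.7% with G behind the triplet.

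**Figure D1:**
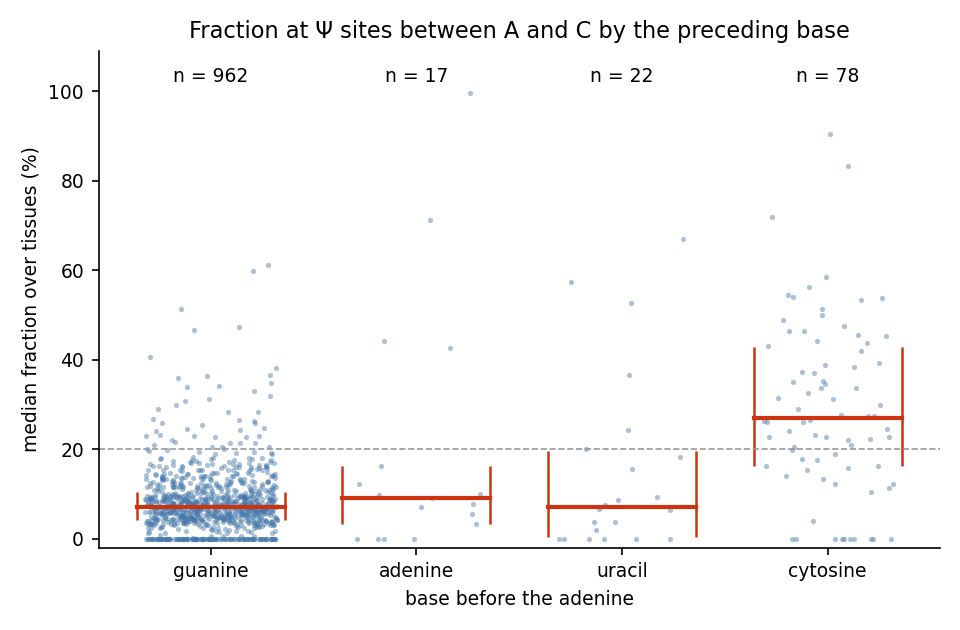
Median fraction over tissues (%) of each AUC site, by the base before the A. Each point is a site, the long red line is the median and the short vertical lines span the quartiles, and the dashed line marks 20%. The 78 sites after cytosine centre on 27.0%, and the 962 sites after guanine on 7.09%.

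In the other contexts with C after the site, C one base further upstream went with a higher median than G where G or U stood directly before the site, and with a lower one where C did. Where C stood directly before the site, the 904 in-gene sites with G one base further upstream had a median of 16.7% and the 103 with C a median of 12.1%. Where G stood directly before the site, the medians were 8.56% for 488 sites with G and 9.74% for 164 with C one base further. Where U stood directly before the site, the 258 sites with C one base further had a median of 24.7% and the 319 with G a median of 13.8%. Of the 4 contexts with C after the site, AUC had the lowest share of sites with a median of 20% or more, 10.2% (110 of 1079, Wilson interval 8.53% to 12.1%), against 18.5% for GUC, 34.7% for CUC and 45.7% for UUC. Over all in-gene sites of other contexts the share was 20.8%. The median fraction was 7.37% over the AUC sites and 9.41% over the other contexts.

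Part of the AUC letters also occurs in the oligos that the library protocol ligates to the RNA. They are shown, 5′ to 3′ and without the 5 random letters of the 3′ adapter, with the shared triplet in capitals.
3′ adapter: agATCggaagagcacacgtct
5′ adapter: guucagaguucuacaguccgacgAUC
The first 7 letters of the 3′ adapter were found around 153 AUC sites, its letters 2 to 7 around 531, and the last 5 letters of the 5′ adapter around 357. Either stretch was held by 678 AUC sites (62.8%), whose median fraction was 7.26%, and 3.10% of them had a median of 20% or more. The 401 sites with neither had a median of 7.75%, and 22.2% of them had a median of 20% or more. Within the sites after G, the 284 with neither stretch had a median of 6.30%. The other uridines of the adapters that have 3 letters on both sides gave 7-letter sequences found at 0 to 3 in-gene sites each. The part of the adapters in these counts was not tested. No AUC site had a listed site on the opposite strand within 5 bases, and 10 had another listed site on their own strand within 5 bases.

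Over the 12 tissues the level of the class moved little. The median fraction of the AUC sites with a value lay between 6.82% in embryo and 8.79% in radicle in the dark, and in the other contexts between 8.18% in seedling at 2 weeks and 11.4% in radicle in the dark. For sites after G the medians ran from 6.38% to 8.36% and for the other AUC sites from 17.997% in flag leaf at heading to 30.4% in radicle in the dark. In each of the 12 tissues the sites after G lay below the other contexts, and the remaining AUC sites above them. Between 16.0% of the AUC sites in straw and 27.1% in embryo were listed at a fraction of 0. In the other contexts the lowest and highest shares fell in the same tissues, 17.3% and 24.4%. Between 1019 and 1068 of the 1079 AUC sites had a value.

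**Figure D2:**
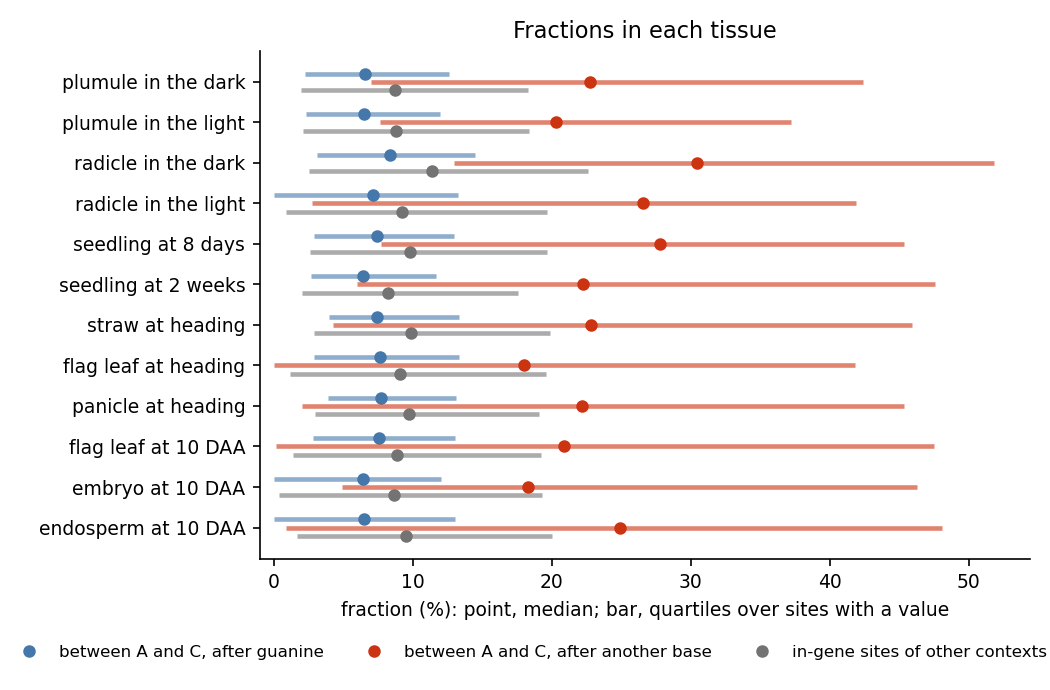
Fraction (%) in each of the 12 tissues for AUC sites after G (blue), AUC sites after another base (red) and in-gene sites of other contexts (grey). Points are medians and bars span the quartiles over the sites with a value. The blue medians lie between 6.38% and 8.36%, the red ones between 17.997% and 30.4%. Of the 117 red sites, 78 follow C.

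The quality flag was met unevenly. In the 11 flagged tissues, 20 AUC sites passed in none, 624 (57.8%) in exactly 1, 334 in 2 to 4 and 101 (9.36%) in 5 or more, and 5 passed in all 11. In the other contexts 58.8% passed in exactly 1 tissue and 9.33% in 5 or more. Of the 624 sites that passed once, 442 had a fraction above 0 in at least 6 further tissues. In the other contexts 2955 of 4142 did. A single pass therefore does not mean a single tissue with a value above 0. Whether values that did not pass exceed the background of the assay was not tested. The fewest AUC sites, 135 (12.51%), passed in seedling at 8 days, and radicle in the dark had the most, 316 (29.29%). In the other contexts the lowest and highest counts fell in the same tissues, 802 (11.38%) and 1940 (27.54%), so this order is not particular to AUC sites. AUC sites made up 10.1% of the in-gene sites that passed in embryo (166 of 1647, Wilson interval 8.72% to 11.6%) and 16.9% in flag leaf at 10 DAA (252 of 1491, 15.1% to 18.9%), the lowest and the highest share. These intervals cover counting only, and the same site can be counted in several tissues.

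Sites that ranked high in a tissue did so only in part elsewhere. Over the 66 pairs of tissues, the median Spearman rho of the fractions across AUC sites was 0.30, with a range of 0.16 to 0.48, against a median of 0.49 in the other contexts. For the 101 AUC sites that passed in 5 or more tissues it was 0.65, and for the 657 such sites of other contexts 0.76. The sites share libraries and depth, so these are descriptions. The 101 sites had a value in all 12 tissues. Their median fraction was 12.4% and the median of their SD over the tissues was 4.27 points, and for the 646 comparable sites of other contexts the values were 17.8% and 4.59 points. Of the 101, 93 followed G and 20 had a median of 20% or more. All 8 that followed another base had a median of 20% or more.

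The site with the highest median among those 101 lay in Os05g0452600, at position 22198527 on the plus strand of chromosome 5 (IRGSP-1.0), 212 bases from the 5′ end of a gene span of 1228 bases.
Os05g0452600 site: ccATCta
Its fraction was 87.4% and 83.3% in plumule in the dark and in the light, 90.6% and 81.4% in radicle in the dark and in the light, and 86.4% and 95.6% in seedling at 8 days and 2 weeks. At heading it was 87.6% in straw, 90.1% in flag leaf and 90.7% in panicle, and at 10 DAA it was 93.1% in flag leaf, 90.7% in embryo and 96.1% in endosperm. The site passed in all 11 flagged tissues, and all 12 values lay above 80%, with an SD of 4.47 points. The gene was expressed at 15.7 to 61.3 TPM, the length-corrected transcript share of the expression table, in the 24 expression libraries, with a mean of 31.6 TPM.

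Os02g0161900 held the most strongly modified group of AUC sites within 1 gene. Its 3 sites lie on the minus strand of chromosome 2 at positions 3341911, 3341683 and 3340999, within a gene span of 3340458 to 3343060, and all 3 have the same 7 letters.
Os02g0161900 sites: gcATCcc
The distances between them are 228, 684 and 912 bases, which are 1, 3 and 4 times 228 bases, a regular spacing whose sequence was not analysed here. If the surrounding sequence is repeated, reads may be shared between the sites, so their values are not taken as independent. The site at 3341911 had fractions of 42.6% to 63.2% with a median of 56.3%, the site at 3340999 fractions of 27.3% to 60.8% with a median of 53.2%, and the site at 3341683 fractions of 35.97% to 58.1% with a median of 48.8%. Each had its lowest value in radicle in the light and passed in 10 of the 11 flagged tissues, and for the first and the second the tissue that did not pass was radicle in the light. The mean expression of the gene was 1182 TPM, with a range of 363 to 3701 TPM over the libraries.

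The same 7 letters were found at 11 AUC sites in 9 genes, with a median of 46.4%, and 9 of them had a median of 20% or more. Over all AUC sites, 23 pairs of sites in 18 genes shared the gene and the 7 letters, and 5 pairs in 2 genes lay at a multiple of 228 bases. The second of these genes was Os06g0681400, whose sites with this spacing had medians of only 4.94% to 7.74%. Os06g0681400 was also 1 of 4 genes that tied for the most AUC sites, 4 each, with Os02g0626100, Os07g0571100 and Os11g0703900. In Os02g0626100 the 4 medians ran from 3.79% to 5.74% and in Os07g0571100 from 7.12% to 9.24%. In Os11g0703900 a site 231 bases from the 5′ end, after C, had a median of 28.9%, and the 3 further sites, all after G, had medians of 3.04%, 3.80% and 5.20%. Of the 962 genes, 866 held 1 AUC site, 79 held 2 and 13 held 3.

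The other high AUC sites that passed in 5 or more tissues lay in Os10g0502600, Os07g0108300 and Os06g0662000.
Os10g0502600 site, chromosome 10, position 19173998, minus strand: tcATCcc
Os07g0108300 site, chromosome 7, position 447357, minus strand: ctATCct
Os06g0662000 site, chromosome 6, position 27288963, minus strand: agATCgg
The first had a median of 58.6%, with 39.5% in seedling at 8 days as the lowest and 68.0% in panicle as the highest value. The second had a median of 52.6% and ran from 41.3% in plumule in the dark to 69.7% in embryo. The third had a median of 51.2% and ran from 23.96% in endosperm to 75.6% in straw. Its 7 letters are nevertheless those of the second commonest sequence, whose 153 sites had a median of 7.08%. The first site did not pass in seedling at 8 days, the second not in embryo and the third not in endosperm. Plumule in the dark has no flag. Os07g0108300 had its lowest level in embryo, 28.9 and 29.1 TPM. The part of read depth in these extremes was not tested.

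The site of Os06g0662000 was also among the 4 sites with the largest spread over tissues, a range of 51.6 points. Wider still were Os06g0172800, with 0% in embryo and 55.7% in radicle in the dark, and Os03g0792900, with 17.9% in plumule in the light and 72.7% in panicle. The fourth, in Os03g0255500, was listed at 0 in plumule in both light conditions and reached 44.9% in embryo. The level of Os03g0255500 varied between 10.9 and 648 TPM and that of Os06g0172800 between 4.2 and 208 TPM over the libraries, whereas that of Os03g0792900 stayed between 35.5 and 113 TPM. The values of 0 fell in the tissues where these genes were lowest. Os06g0172800 was at 6.79 and 4.25 TPM in embryo, and Os03g0255500 at 10.9 to 15.0 TPM in plumule. The site of Os06g0172800 did not pass in embryo, nor that of Os03g0255500 in plumule in the light. The site of Os03g0792900 passed neither in plumule in the light nor in panicle. The part of read depth in these ranges was not tested. At the other end, the 3 steadiest sites with a median of 20% or more lay in Os11g0456300 (13.4% to 22.7%, SD 2.73 points), Os01g0662600 (15.0% to 26.3%, SD 3.18 points) and Os11g0703900 (24.7% to 36.2%, SD 3.73 points). The last pair of these passed in all 11 flagged tissues.

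**Figure D3:**
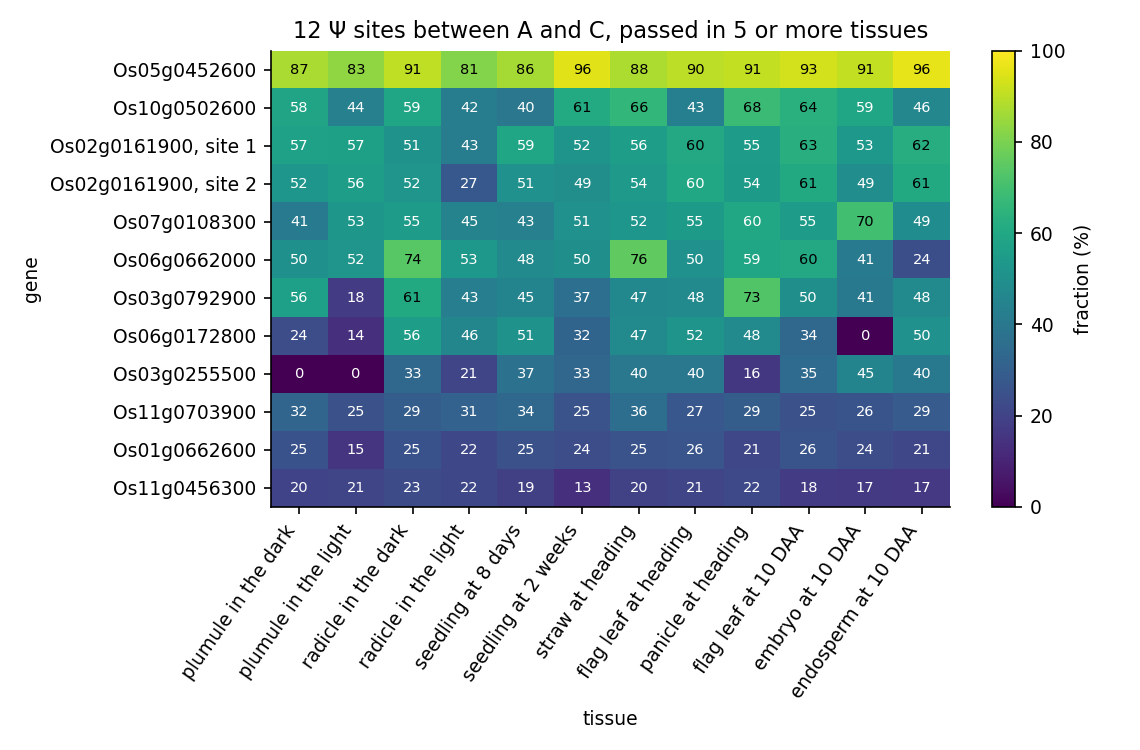
Fraction (%) of 12 AUC sites, each passed in 5 or more tissues, with sites in rows ordered by their median and tissues in columns. The colour and the printed number give the fraction. The uppermost row, Os05g0452600, runs from 81.4% to 96.1%, and the lowest, Os11g0456300, from 13.4% to 22.7%.

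A few AUC sites with very high fractions passed in few tissues. The highest median of all AUC sites, 99.5%, was found in Os03g0141000, a site chosen for mention after its values were seen. It lies at position 2265247 on the plus strand of chromosome 3, 322 bases from the 5′ end.
Os03g0141000 site: taATCcg
Its fractions ran from 96.3% in seedling at 2 weeks to 100% in endosperm, a range of 3.72 points, yet it passed in panicle only. Of the 1079 AUC sites, 18 (1.67%) had a median of 50% or more, and 15 of these 18 were among the 117 sites that do not follow G.

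Along the gene, AUC sites stood nearer to the 5′ end than the sites of other contexts. The first 20% of the gene span, counted from the 5′ end and with introns included, held 323 of the 1079 AUC sites (29.9%, Wilson interval 27.3% to 32.7%) and 1346 of the 7045 others (19.1%, 18.2% to 20.0%). This was the highest share of the 16 contexts defined by the bases on both sides of the site, before GUC with 25.4% and CUC with 23.2%. The last 20% of the span held 25.7% of the AUC sites (23.2% to 28.4%) and 29.1% of the others. Within 300 bases of the 5′ end of the gene lay 23.0% of the AUC sites and 13.8% of the others. Genes without introns were taken as those whose span equals the gene length in the expression table. In these genes the first 20% of the span held 18.6% of 210 AUC sites (13.9% to 24.4%) and 14.6% of 1044 others (12.5% to 16.8%), and the intervals overlapped. The share in the first 20% was alike for AUC sites after G, 30.4%, and after another base, 26.5%. It differed between single sequences. Among the 5 commonest 7-letter sequences it ran from 16.3% for the third, with 135 sites, to 41.0% for the fourth, with 83 sites. The intervals cover counting only, and sites of 1 gene are not independent.

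**Figure D4:**
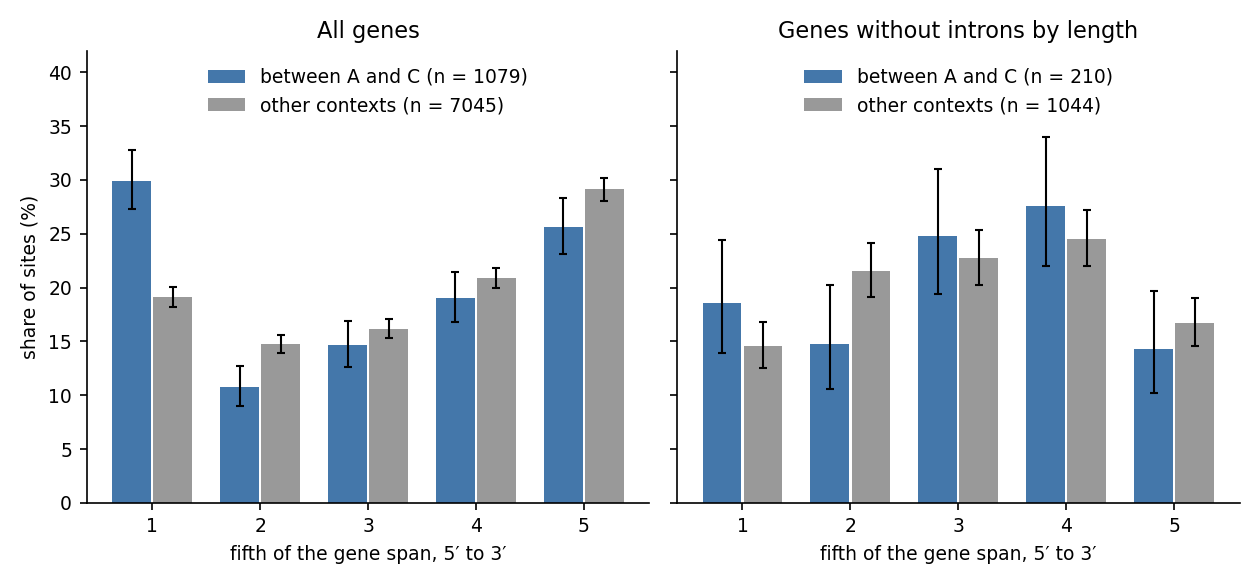
Share of sites (%) in each of 5 equal parts of the gene span from 5′ to 3′, for AUC sites (blue) and in-gene sites of other contexts (grey), in all genes (left) and in genes without introns by length (right). Error bars are 95% Wilson intervals. In all genes the first part holds 29.9% of the AUC sites and 19.1% of the others.

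Fractions of AUC sites did not rise or fall along the gene in the same way for both classes. After G, the median was 6.91% in the first and 7.36% in the last 20% of the span. After another base it was 27.5%, 23.2%, 15.1%, 9.79% and 18.4% from the first to the last 20%. These medians come from 31, 15, 20, 23 and 28 sites. In the 5-letter class with C on both sides of the triplet 32.4% of the sites lay in the first 20%, and in the class with G on both sides 31.5%.

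The genes that hold AUC sites were well expressed. Their mean over the 24 libraries had a median of 77.9 TPM over the AUC sites and 70.4 TPM over the sites of other contexts. In single tissues the host genes of all AUC sites, also of those at 0 or without a value, had medians of 33.9 to 65.3 TPM. Over all Os genes above 0 TPM the medians were 4.62 to 8.69 TPM. Split into 4 equal groups by the TPM of the gene, the share of AUC sites with a median fraction of 0 was 30.7% in the lowest group and 6.67% to 8.89% in the 3 higher ones. The mean number of tissues in which a site passed was 1.21, 1.72, 2.18 and 3.05 from the lowest to the highest group.

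Among AUC sites with a fraction above 0, higher fractions went with lower TPM of the gene. The Spearman rho lay between -0.42 in radicle in the light and -0.28 in flag leaf at 10 DAA, with a median of -0.34 over the 12 tissues, from 753 to 886 sites a tissue. Among sites that passed in the tissue the median rho was -0.61. In the other contexts the corresponding medians were -0.35 and -0.56. With the sites at 0 kept, the sign turned, and the median rho was 0.23 with a range of 0.13 to 0.36. Detection at low read depth and the level of the gene cannot be told apart in these correlations, which are across sites that share libraries. The 4 groups by TPM had median fractions of 7.21%, 8.30%, 7.54% and 6.17% with zeros included.

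**Figure D5:**
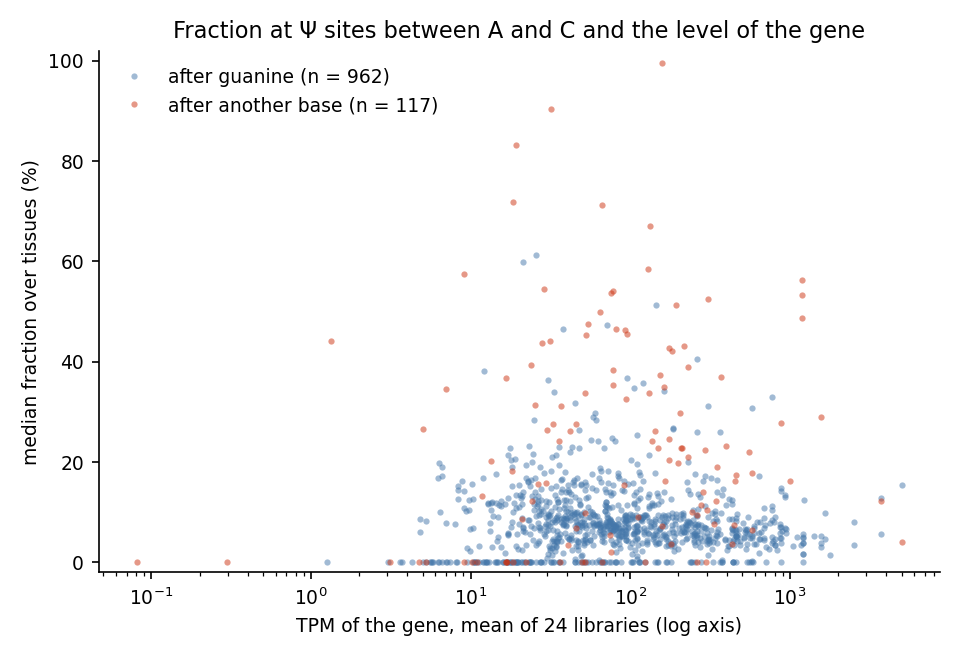
Median fraction over tissues (%) of each AUC site against the TPM of its gene, the mean of 24 libraries on a log axis, for sites after G (blue, n = 962) and after another base (red, n = 117). Sites with a median of 0 gather at low TPM, and of the 18 sites at 50% or more 15 are red.

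Fractions were then set side by side for 6 pairs of tissues, with a difference of 10 points or more counted in each direction. These counts have no replicate check, and the share of all listed sites, also those outside genes, is given as background. In plumule, 107 AUC sites (10.2%) were at least 10 points higher in the light and 130 (12.4%) lower, against 11.4% and 12.6% of all listed sites. In radicle, 90 (8.83%) were higher in the light and 143 (14.03%) lower, against 10.4% and 16.5%. The shares of AUC sites in both light comparisons lay at or below those of all listed sites. Between seedlings, 97 AUC sites (9.22%) were higher at 2 weeks and 146 (13.9%) lower than at 8 days, against 11% and 15%. Panicle had 135 higher (13.3%) and 121 lower (11.9%) AUC sites than flag leaf at heading, against 14.7% and 12.1%. Flag leaf at 10 DAA had 111 higher (11.04%) and 110 lower (10.9%) than flag leaf at heading, against 12% and 11.3%, and this pair shares the flag leaf at heading values with the pair before. Embryo had 113 higher (11.1%) and 151 lower (14.8%) than endosperm, against 13.3% and 14.9%. In no pair did AUC sites exceed the share of all listed sites in either direction, but this background includes sites outside genes. Against all in-gene sites, AUC sites had the larger share among those lower in the light in plumule (12.4% against 11.6%), those higher and those lower in panicle (against 12.9% and 11.3%), those higher and those lower in flag leaf at 10 DAA (against 10.7% and 10.5%) and those lower in embryo (against 14.2%). All of these lay within 1 point of the background. The balance of directions also depended on values of 0. With both values above 0, 49 AUC sites were higher and 79 lower in panicle, which turns the order, and 34 were higher and 93 lower in seedling at 2 weeks. At a difference of 20 points the seedlings gave 51 higher and 50 lower. For these settings the background is given over all 6 pairs only. With both values above 0 it was 2633 higher and 3783 lower in-gene sites, against 283 and 434 AUC sites. At 20 points it was 2191 and 2543, against 287 and 319 AUC sites. Whether the imbalance in a single pair is particular to AUC sites was not tested.

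Single AUC sites with a fraction above 0 in both tissues still differed widely. They were taken from the sites with at least 3 passes in any tissues, and most did not pass in the tissues compared. Light and dark plumule differed most in Os03g0194900, with 87.5% in the light and 47.9% in the dark, and in Os07g0446600, with 43.8% and 14.4%. In the other direction they differed most in Os04g0647800, with 34.0% in the light and 75.2% in the dark, and in Os03g0792900, with 17.9% and 56.4%. None of these 4 sites passed in plumule in the light, and Os03g0194900 was expressed there at only 3.97 and 3.44 TPM, against 22.1 and 22.5 TPM in the dark.
Os03g0194900 site, chromosome 3, position 4925683, plus strand: ccATCct
Os04g0647800 site, chromosome 4, position 32957506, minus strand: caATCct
In radicle, the site of Os07g0563800 was at 30.0% in the light and 11.9% in the dark and that of Os06g0725900 at 16.0% and 3.8%, and the site of Os03g0194900 was at 23.4% and 51.9% and that of Os09g0299000 at 23.6% and 50.3%. Between embryo and endosperm, Os06g0625900 (88.2% and 63.5%) and Os03g0225100 (28.4% and 6.0%) were higher in embryo, and Os07g0498300 (12.4% and 38.6%) and Os01g0627400 (28.6% and 45.8%) were lower. None of these 4 sites passed in embryo or in endosperm, and Os03g0225100 was at 3.79 and 4.37 TPM in embryo. The part of read depth in these differences was not tested. The 2 expression libraries of radicle in the light differed from each other more than those of other groups, as given next, and the treated libraries behind its fractions were not analysed here.

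The 24 expression libraries summed to between 2109800 and 9006730 reads as estimated from the steps of their lowest values, and replicates correlated at 0.986 to 0.994 across genes on log2(TPM + 1) in 11 groups. In radicle in the light the correlation was 0.914, and replicate 1 correlated with endosperm replicate 1 at 0.896 and replicate 2 at 0.739. The chi-square per gene between replicates, near 1 when counting noise alone separates them, was 7.58 in radicle in the light and 0.991 to 1.15 elsewhere, so the p-values below measure a spread that may be technical. The value was 1.01 and 0.991 in the plumule groups, 1.02 in endosperm and 1.03 in embryo, so that these pairs differed by little more than counting noise, and nothing given excludes that a pair is 1 sample measured again. With 1 endosperm library left out of the seed contrast below, 598 or 607 host genes were called in place of 672. Radicle and plumule enter no contrast below, and all 12 groups share 1 estimate of the spread.

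Expression of the host genes was compared in 4 contrasts with limma on log2(TPM + 1), with Benjamini-Hochberg adjustment over 29987 genes tested and a threshold of 0.05. Of the 962 host genes, 960 passed the filter of 1 TPM in at least 2 libraries. In whole tissues, fewer cells of a type and less RNA per cell cannot be told apart. Between seedling at 2 weeks and at 8 days, 300 host genes (31.25%) were higher and 330 (34.4%) lower at 2 weeks, against 27.5% and 23.9% of all genes. Between panicle and flag leaf at heading, 394 (41.0%) were higher and 297 (30.9%) lower in panicle, against 37.1% and 23%. After quantile normalization this contrast gave 40.9% higher and 32.9% lower host genes against 27.7% and 32.9% of all genes, and the median log2 change over all genes moved from 0.18 to -0.08. Between flag leaf at 10 DAA and at heading, 224 (23.3%) were higher and 237 (24.7%) lower at 10 DAA, against 13.3% and 17.3%. Between embryo and endosperm, 310 (32.3%) were higher and 362 (37.7%) lower in embryo, against 27.6% and 26.4%. Host genes were called more often than the background in both directions in all 4 contrasts, except for those lower in panicle after quantile normalization. With a filter of 5 TPM in at least 2 libraries, those higher at 2 weeks were 31.5%, against 31.1% of all genes. Those higher in panicle were then 41.5% against 38.7%, and those higher in embryo 32.5% against 30.4%. The remaining shares lay further above the background. Host genes also had the higher TPM given above, whose part in these shares was not tested. The median log2 change over host genes was between -0.12 and 0.15 in the 4 contrasts and over all genes between -0.02 and 0.18.

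In seedlings, the largest rise among host genes with a mean of at least 32 TPM was in Os05g0375400, with 2735 and 2521 TPM at 2 weeks and 80.8 and 74.5 TPM at 8 days. Its log2 change was 5.06 ± 0.28 (SE, limma adjusted p = 1.2e-09), and the fraction of its AUC site was 7.91% at 2 weeks and 10.8% at 8 days. Os03g0782200 rose from 3.41 and 3.29 TPM to 150 and 136 TPM, a log2 change of 5.05 ± 0.37. Os09g0538000 had 1594 and 1648 TPM at 8 days and 3.83 and 4.53 TPM at 2 weeks, a log2 change of -8.29 ± 0.35. Os03g0836800 went from 103 and 98.1 TPM to 1.78 and 1.42 TPM, a log2 change of -5.29 ± 0.49. The libraries of both ages did not overlap in any of them. Os02g0161900, the gene with the repeated high sites, had 591 and 590 TPM at 8 days and 3701 and 3388 TPM at 2 weeks, which limma gave as 2.58 ± 0.10 (SE) on the log2 scale, with an adjusted p of 3.0e-11. Its 3 sites had fractions of 58.7%, 50.7% and 48.5% at 8 days and of 51.8%, 49.3% and 41.1% at 2 weeks. All 3 fractions were lower at the age with the higher TPM, but the 3 sites may share reads. That order did not hold in all tissues. Flag leaf at 10 DAA, at 1030 and 1006 TPM, had fractions of 63.2%, 60.8% and 57.9%, each above the one at 8 days. A relation of fraction to TPM in this gene was not tested.

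Between panicle and flag leaf at heading, Os05g0399700 had 5310 and 5603 TPM in panicle, and in flag leaf 0.168 TPM in 1 library and 46.8 TPM in the other. Its log2 change of 9.51 ± 1.02 rests on this uneven pair. Os03g0808500 had 730 and 699 TPM in panicle and 1.00 and 1.28 TPM in flag leaf, for which limma gave 8.38 ± 1.54 (SE) on the log2 scale and an adjusted p of 0.0002. This SE comes from the fit over all 12 groups. Without the plumule and radicle libraries the limma adjusted p for Os03g0808500 was 2.2e-12. Os01g0963600 was listed at 0 and at 0.317 TPM in panicle and at 443 and 394 TPM in flag leaf, and Os01g0124000 had 2.09 and 2.75 TPM in panicle and 752 and 764 TPM in flag leaf, a log2 change of -7.80 ± 0.43. In the flag leaf between heading and 10 DAA, Os06g0318600 rose from 6.57 and 9.39 TPM to 246 and 255 TPM (log2 change 4.83 ± 0.24) and Os02g0823100 from 13.0 and 13.2 TPM to 380 and 349 TPM (4.70 ± 0.16). Os04g0517500 fell from 171 and 164 TPM to 5.43 and 7.47 TPM (-4.52 ± 0.24) and Os03g0184100 from 144 and 150 TPM to 7.14 and 9.21 TPM (-4.02 ± 0.28). The AUC site of Os03g0184100 had a fraction of 11.7% at heading and 9.71% at 10 DAA.

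In the seed, Os04g0173800 had 6568 and 6663 TPM in embryo and 5.99 and 9.45 TPM in endosperm, for which limma gave 9.60 ± 0.27 (SE) on the log2 scale and an adjusted p of 4.2e-13, and its AUC site had fractions of 4.93% and 8.11%. Os08g0473600 had 2129 and 2182 TPM in embryo and 3.17 and 3.38 TPM in endosperm, a log2 change of 8.98 ± 0.43. Os03g0639400 had 1.54 and 0.537 TPM in embryo and 351 and 338 TPM in endosperm, a log2 change of -7.45 ± 1.10. Os10g0148100 had 11.8 and 7.68 TPM in embryo and 1405 and 1430 TPM in endosperm, for which limma gave -7.07 ± 1.62 (SE) on the log2 scale and an adjusted p of 0.0016. Without the plumule and radicle libraries the limma adjusted p was 2.2e-10 for Os03g0639400 and 9.3e-11 for Os10g0148100. The SEs of both thus depend on groups outside the contrast. The files pair these identifiers with no gene names, so no role is given for them.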

How the data were processed

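Reads had been aligned by the authors to IRGSP-1.0, the assembly of rice. For each tissue they added up the reads with and without a gap from all replicates and read the modified fraction from the gap ratio on a calibration curve. The deposited site table gives this fraction, between 0 and 1, for 12 tissues, and 11 flags of the authors' p-value-based filter. Whether the curve depends on the letters around a site is not given in the sources used here, so differences between contexts can hold a part of the calibration. The deposited expression table gives TPM by the authors for 38978 genes in 24 libraries, with the length and span of each gene. Its aligner is not given in the sources used here, and its columns do not say whether they are input or treated libraries. No column of per-sample values was left unused. The read equivalents assume that the commonest low value of TPM times length is 1 read, and 48.9% to 69.7% of the values above 0 in a library then came out whole within 0.02.

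Fractions were multiplied by 100 and described by counts, medians and 95% Wilson intervals, which cover counting only. A site's median is over the tissues with a value. For expression, values of log2(TPM + 1) entered limma 3.58.1 (R 4.3.3, variance trend, 12 groups of 2 libraries), a scale on which changes of low genes come out too small. Site work used Python 3.11.15, pandas 2.3.3, numpy 2.4.6, scipy 1.17.1 and matplotlib 3.10.9. The fit was tested on simulated data. The sites, the rules for naming and the lists were chosen with earlier results of these data known. Named sites were, among those that passed in 5 or more tissues with a value in all 12, the 6 highest medians, the 4 largest ranges and the 3 smallest SDs at 20% or more, and in 3 tissue pairs the 2 largest rises and falls among sites with 3 or more passes. Named genes were the 2 largest rises and falls per contrast among called host genes with a mean of 32 TPM or more and no overlap of libraries, and the genes with the most AUC sites. Of the 962 host genes, 0 had an entry in the supplied symbol table, so gene lists, tissue markers and gene roles were not analysed here. Nor were exons, untranslated regions and codons.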

Additional observations from a re-analysis of the deposited data

Results flagged for a closer look

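At 2 named AUC sites the fraction moved in opposite directions with light in plumule and in radicle. The site of Os03g0194900 was 39.6 points higher in the light than in the dark in plumule, and in radicle the same difference was -28.5 points. The site of Os07g0108300 was 11.5 points higher in the light in plumule and the difference was -10.4 points in radicle. The site of Os03g0194900 passed in radicle in the dark but not in plumule or radicle in the light, and its gene was at 3.97 and 3.44 TPM in plumule in the light against 131 and 132 TPM in radicle in the dark. The site of Os07g0108300 passed in none of plumule in the light, radicle in the dark and radicle in the light. Plumule in the dark has no flag. Each fraction is 1 pooled value, so the difference between the organs was not tested, and the radicle in the light libraries stand apart in expression.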

How the results depend on the processing

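The counts of host genes called by limma stayed within 1.5 times of the reported ones under every alternative run: another pseudocount, no filter, 5 TPM in 2 libraries, quantile normalization, the 4 libraries alone, no plumule and radicle libraries, host genes of passed sites, and leaving out libraries. Without single replicates the counts were 561 to 575 for seedlings, 613 to 627 for panicle, 364 to 371 for the flag leaf over time and 598 to 623 for the seed, against 630, 691, 461 and 672. Quantile normalization moved the background of the panicle contrast from 37.1% higher and 23% lower to 27.7% and 32.9% of all genes. The replicate number is shared by the columns of all groups and nothing says that it marks a common batch, and the replicate differences of the 2 groups correlated at -0.01 to 0.01. With a replicate block the counts were 624, 690, 457 and 670. Without the plumule and radicle libraries they rose to 738, 792, 606 and 766, and the share of all genes called rose as well. All 16 named genes kept their direction and their call in 176 of 176 alternative fits. Among descriptions, the AUC share of in-gene sites was 6.88% when each 7-letter sequence was counted once. The share of sites with a median of 20% or more was 19.4% with zeros left out, 31.2% at a minimum of 10% and 1.67% at 50%, and, in settings chosen after seeing the data, 22.2% without sites that hold adapter letters and 4.89% for sites after G. The share in the last 20% of the span was 20.2% in spans under 3000 bases and, chosen after seeing the data, 14.3% in genes without introns. The median rho of fraction with TPM was -0.61 for sites that passed and 0.23 with zeros kept. Without replicate 1 or 2 of the TPM it was -0.34 in both cases. Differences of 10 points or more numbered 1454 of 6158 over the 6 pairs (23.6%, against 23.8% of all in-gene sites). At 20 points they numbered 606 of 6158 (9.84% against 10.2%), and with both values above 0 they were 717 of 4254 (16.9% against 19.4%). With a pass in at least 1 of the tissues they were 439 of 1806 (24.3% against 26.6%), and plumule in the dark has no flag. The causes were not tested. The depth behind each fraction limits all of these.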
